A study of Mus musculus with 2 samples.

Results

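The genes described here encode pore-forming subunits of the sodium, chloride and potassium channels of the sarcolemma, the surface membrane of the skeletal myofiber. They are 9 of the 35163 genes in the deposited count table and were chosen by name: Scn4a, Clcn1, Kcnc1, Kcnc4, Kcnj2, Kcnj11, Kcnj12, Kcna7 and Kcnma1. Their levels were measured fibre by fibre in the flexor digitorum brevis (FDB), a fast-twitch toe flexor, of 1 untreated male C57BL/6J mouse more than 3 months old. Whole fibres and cut fragments were sorted 1 to a well, and mcSCRB-seq, which counts transcripts from their 3′ ends with unique molecular identifiers (UMIs), gave 763 cells on 8 library indexes and 2 sequencing lanes. Of these, 171 cells had more than 5000 genes and less than 20% of counts from mitochondrial (mt-) genes and were kept. Each kept cell was placed in a fibre class by the largest of the 5 myosin heavy chain genes Myh1, Myh2, Myh4, Myh7 and Myh8, which gave 117 fast 2X cells (Myh1), 51 fast 2A cells (Myh2), 2 slow cells (Myh7) and 1 fast 2B cell (Myh4).

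The kept cells held 51923865 counts, with a median of 239581 per cell and a range of 28827 to 1542996. Median totals were 255726 in fast 2X and 206510 in fast 2A cells, and median mt- shares were 5.01% and 6.96%. The 763 cell barcodes were all different. Markers of the myofiber (Ttn, Acta1, Ckm, Neb, Tnnc2, Tnni2) summed to 115333 counts per 1000000 (CPM), so the cells fit the labelled tissue. All cells came from 1 mouse, so there is no replicate. No test was made, and every limit below is a 95% limit that covers counting error only.

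A myofiber fires when voltage-gated sodium channels open and depolarise the sarcolemma and its transverse tubules. Chloride conductance and several potassium conductances then return the membrane to rest and hold it there. Scn4a encodes the muscle sodium channel, and its variants are known from periodic paralysis and myotonia. Clcn1 encodes the muscle chloride channel, which carries most of the resting conductance and whose loss causes myotonia congenita. Kcnc1 and Kcnc4 encode fast delayed and inactivating potassium channels of the Shaw family, and Kcna7 a Shaker-type channel. Kcnj2 and Kcnj12 encode inward rectifiers that hold the resting potential, Kcnj11 the pore of the ATP-sensitive potassium channel, and Kcnma1 the large-conductance channel opened by calcium and voltage.

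The 250 bases before the RefSeq start site are shown for Clcn1 and Kcnc1, the members that stood at least 1.5-fold apart between fibre classes in opposite directions and whose windows hold no annotated exon. RefSeq windows (GRCm38.p6) were found for 8 of the 9 genes. Capitals mark CANNTG, the E-box read by muscle bHLH factors, which reads the same on both strands. No other motif searched overlaps the capitals.
Clcn1 (chr6:42286435-42286684, plus strand): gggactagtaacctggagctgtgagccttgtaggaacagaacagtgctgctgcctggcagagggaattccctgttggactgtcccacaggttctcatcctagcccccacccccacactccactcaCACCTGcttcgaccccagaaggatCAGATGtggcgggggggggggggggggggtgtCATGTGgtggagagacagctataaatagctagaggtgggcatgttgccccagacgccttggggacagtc
Kcnc1 (chr7:46396218-46396467, plus strand): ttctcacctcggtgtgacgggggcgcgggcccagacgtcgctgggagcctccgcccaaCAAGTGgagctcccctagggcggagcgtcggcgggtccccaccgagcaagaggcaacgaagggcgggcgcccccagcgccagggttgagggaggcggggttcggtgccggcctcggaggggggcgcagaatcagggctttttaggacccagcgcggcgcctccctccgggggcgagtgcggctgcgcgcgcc
The Clcn1 window held 3 CANNTG sites and 1 MEF2 box, with a GC content of 60.0% and 3 CG pairs. The Kcnc1 window held 1 CANNTG site and no MEF2 box, with a GC content of 74.4% and 30 CG pairs. Over 32851 promoter windows of the same length, 66.2% held CANNTG (a mean of 1.16 sites), 2.92% held a MEF2 box, the median GC content was 52.4% and the median number of CG pairs was 6. These letter matches are descriptions of the windows and were not tested for binding.

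Every member was found in these fibres. Levels are compared between genes per kb of annotated exon (GENCODE vM21, GRCm38) and then in CPM. Kcnc4 stood at 30.4 CPM per kb (limits 29.7 to 31.2) and Kcnj11 at 29.1 (limits 28.3 to 29.8), neighbours whose limits overlapped. Kcna7 followed at 22.7 CPM per kb, Kcnma1 at 21.9, Kcnc1 at 20.2 and Kcnj12 at 18.3. The limits of Kcna7 (21.9 to 23.6) and Kcnma1 (21.6 to 22.2) also overlapped. Clcn1 at 12.3, Scn4a at 9.40 and Kcnj2 at 7.58 CPM per kb were the lowest, each clear of its neighbours by more than counting error. Because UMIs are counted from 3′ ends, counts need not rise with exon length. Exon length is thus a rough divisor here, and the order depends on it. It also leaves introns out, and whether intron reads were counted is not given in the sources used here. In CPM over the kept cells Kcnma1 was at 372, Kcnc1 at 191, Kcnc4 at 112 and Kcnj11 at 107. Clcn1 at 66.7 and Scn4a at 66.2 CPM had overlapping limits. They stood above Kcnj12 at 50.3, Kcna7 at 49.6 and Kcnj2 at 41.3. Levels in CPM by class are given for each gene below.

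A list of 20 channels known from neurons and kidney was used as a comparison for low levels. Its median was 0.661 CPM per kb, and its highest gene, Kcnh7, reached 3.73. Low levels were not particular to it. The 15 auxiliary subunits and 27 other muscle channels described further below had medians of 1.55 and 1.06 CPM per kb. Of these, 2 of 15 and 5 of 27 lay above the lowest member. Per kb, all 9 members lay above all 20 neuron and kidney channels. In CPM this did not hold, since Kcnh7 at 56.8 stood above Kcnj12, Kcna7 and Kcnj2. Detection was compared on cells thinned to a common depth of 28827 counts. There Kcnj2, the scarcest member, had a UMI in 97 of 171 cells (56.7%, unthinned 90.1%). Scn10a, a sodium channel of sensory neurons, had a UMI in 8 of 171 (4.68%, unthinned 35.7%). Of the 20 genes, only Kcnh7 was above Kcnj2, with a UMI in 62.6% of thinned cells. Kcnma1 and Kcnc1 had UMIs in all 171 cells unthinned, and in 99.4% and 97.1% of thinned cells.

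**Figure D1:**
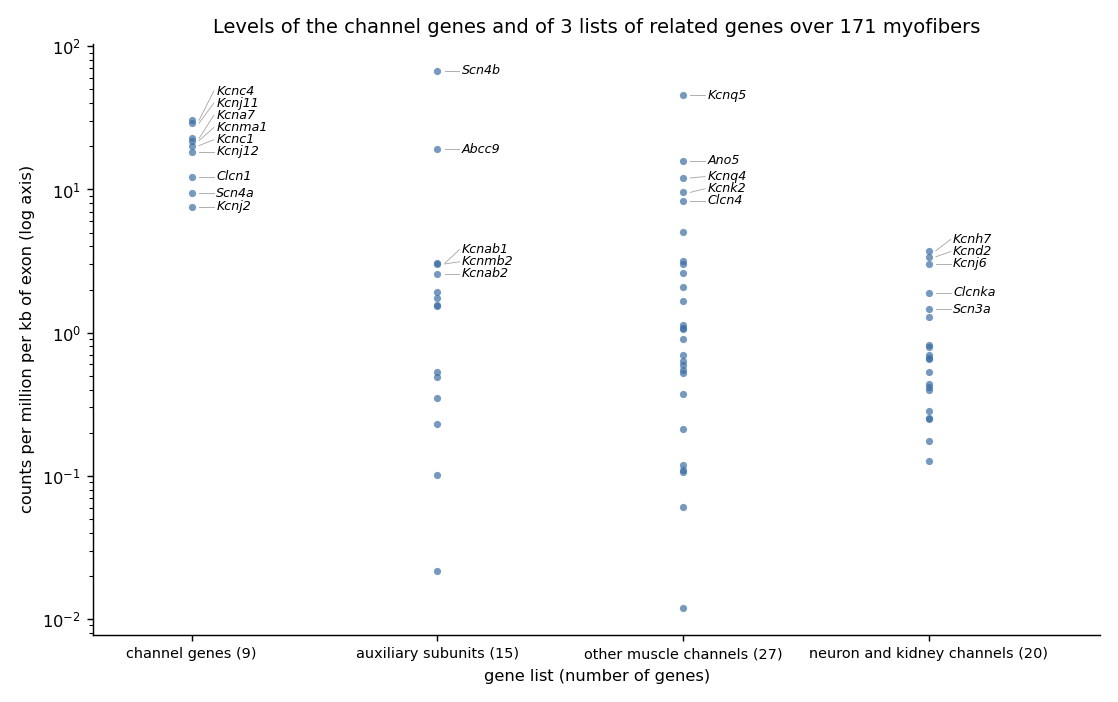
Summed level of each gene over the 171 kept cells in CPM per kb of exon (log axis), for the 9 channel genes, 15 auxiliary subunits, 27 other muscle channels and 20 channels known from neurons and kidney. The 9 channel genes lie between 7.58 and 30.4, above the highest neuron or kidney channel, Kcnh7, at 3.73. Without division by exon length Kcnh7, at 56.8 CPM, stood above Kcnj12, Kcna7 and Kcnj2.

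Between the main fibre classes, 3 of the 9 members were at least 1.5-fold apart. Kcnma1 and Kcnc1 were higher in fast 2A cells and Clcn1 was lower. Over the 12625 genes with at least 200 counts in both classes together, 14.1% were 1.5-fold apart, 3.21% higher and 10.9% lower in fast 2A cells. The median log2 ratio was -0.14 over the members and -0.11 over all genes. Fast 2A cells were thus read against a background in which most genes sat slightly lower, and in which 22.7% of genes past 1.5-fold were higher. That share was 41.5% when TMM factors, which set the middle of the genes near 0, replaced totals, and 8.67% when counts were divided by the ERCC spike-in RNA added to each well. TMM shifted every log2 ratio so that the median gene stood at 0.00, and the spike-ins set it at -0.28.

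**Figure D2:**
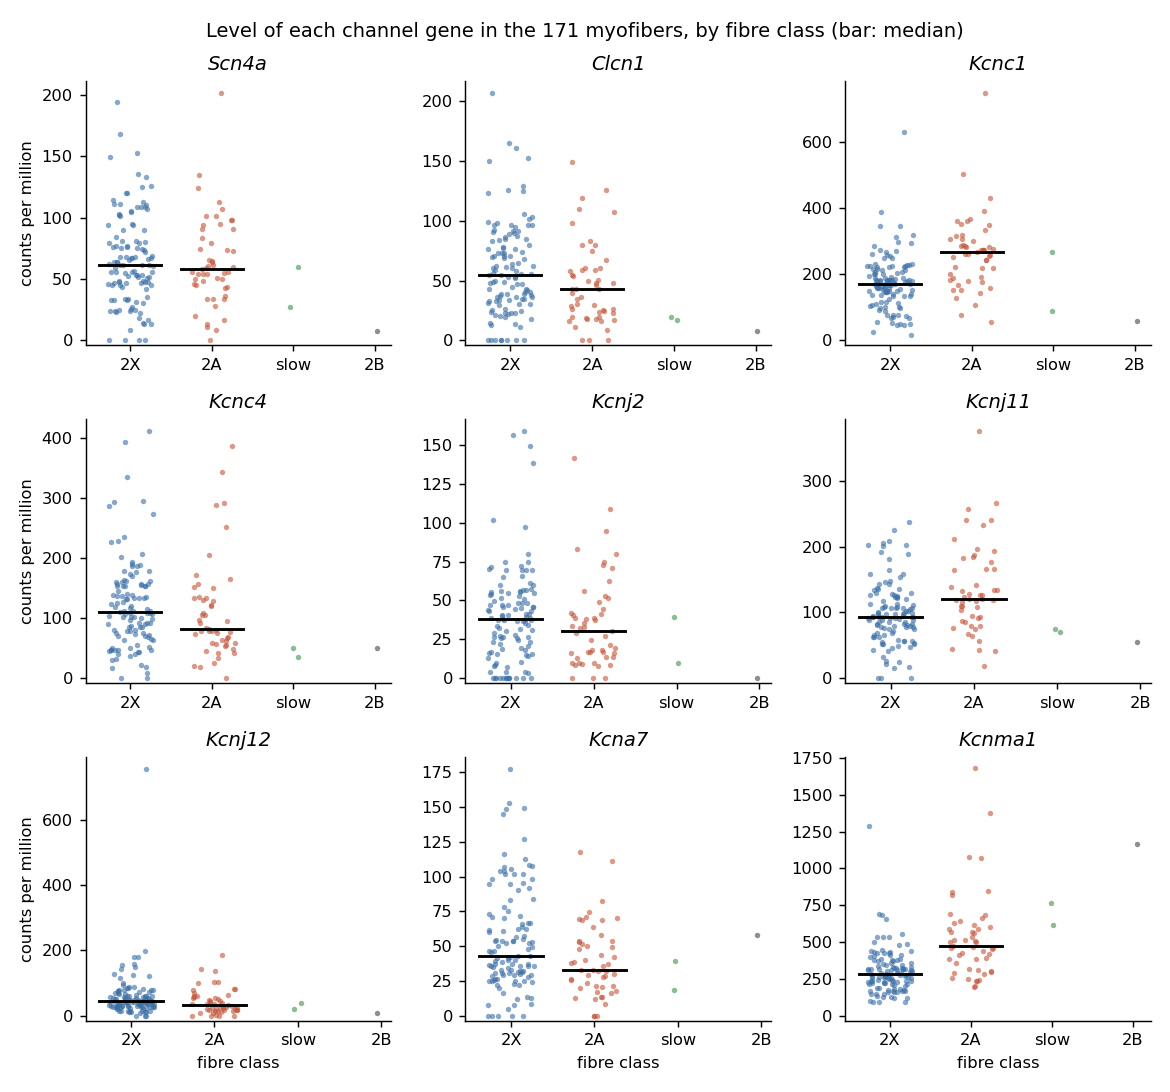
Level of each channel gene in CPM (linear axis) in each of the 171 kept cells, by fibre class, with 117 fast 2X, 51 fast 2A, 2 slow and 1 fast 2B cell; black bars are medians of the larger classes. The classes overlap for every gene, with the median of fast 2A cells above that of fast 2X cells for Kcnc1, Kcnj11 and Kcnma1.

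Kcnma1 (chromosome 14, 23289431 to 24014491, minus strand) had the largest class difference of the 9. It ranged from 90.5 CPM through a median of 286 to 1285 in fast 2X cells, and from 194 through 471 to 1679 in fast 2A cells. Of the 51 fast 2A cells, 43 lay above the fast 2X median, although the ranges overlapped. Summed over cells, Kcnma1 was 576 CPM (limits 563 to 590) in fast 2A and 299.8 (294 to 305) in fast 2X cells (log2 ratio 0.94, limits 0.90 to 0.99; 1.92-fold). The ratio was 1.22 in lane 1 and 0.60 in lane 2, and the lanes hold different cells. Indexes 705 to 708 lie in lane 1 and indexes 709 to 712 in lane 2. For every gene, ratios by lane and by index thus regroup the same cells. Within the 6 library indexes with at least 5 cells of each class the Kcnma1 ratio ran from 0.21 on index 709 to 1.34 on index 705, above 0 in 6 of 6. One fast 2A cell on index 705, in lane 1, held 971 of the class's 6860 Kcnma1 counts, and without it the log2 ratio was 0.79. Kcnma1 spans 725 kb. Of 235 genes tested that span at least 500 kb, 5 (2.13%) were 1.5-fold higher in fast 2A cells and their median log2 ratio was -0.19. Kcnma1 is also a gene of vascular smooth muscle: the 6 smooth muscle and pericyte markers, none at 0, summed to 32.0 CPM in fast 2A and 58.0 in fast 2X cells. Per cell, that sum ran from 0.00 through a median of 31.1 to 628 CPM in fast 2A and from 0.00 through 30.1 to 10636 in fast 2X cells, so the medians were alike, and its part in the Kcnma1 values was not tested.

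Kcnc1 (chromosome 7, 46396497 to 46438704, plus strand) was the other member higher in fast 2A cells. Its level ran from 16.6 CPM through a median of 170.3 to 631 in fast 2X cells, and from 55.4 through 268 to 749 in fast 2A cells. The classes overlapped, with 42 of 51 fast 2A cells above the fast 2X median. The sums were 259 CPM (limits 250 to 268) in fast 2A and 171 (167 to 175) in fast 2X cells (log2 ratio 0.60, limits 0.53 to 0.66; 1.51-fold), and these limits reach across the 1.5-fold line. The ratio was 0.53 in lane 1 and 0.66 in lane 2, and within the 6 indexes it ran from 0.35 to 0.78, above 0 in all 6. It fell short of 1.5-fold without index 708 (0.56) or index 712 (0.53), and without the fast 2A cell with most Kcnc1 counts (0.57). The same held with each cell thinned to the lowest total (0.49), with totals between the quartiles (0.57) and per spike-in count (0.43). In all of these the ratio was still above 0.

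Kcnc4 (chromosome 3, 107438303 to 107459552, minus strand), the Shaw-family channel with the higher level per kb but the lower in CPM, did not share this difference. In fast 2X cells it ran from 0.00 through 110.2 to 412 CPM and in fast 2A cells from 0.00 through 82.3 to 387. Its summed levels were 115 and 105 CPM (log2 ratio -0.14, limits -0.23 to -0.05), close to the median of all genes. Across the 6 indexes 5 ratios were below 0 and index 709 gave 0.41.

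Kcna7 (chromosome 7, 45405653 to 45409763, plus strand) leaned to fast 2X cells. Its levels ran from 0.00 through 43.3 to 177 CPM in fast 2X and from 0.00 through 33.2 to 118 in fast 2A cells, with sums of 53.1 and 39.3 CPM. The log2 ratio of -0.43 (limits -0.58 to -0.29) stayed inside 1.5-fold, and reached -0.60 per spike-in count. It was below 0 in 5 of 6 indexes, from -1.25 on index 705 to 0.40 on index 707.

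**Figure D3:**
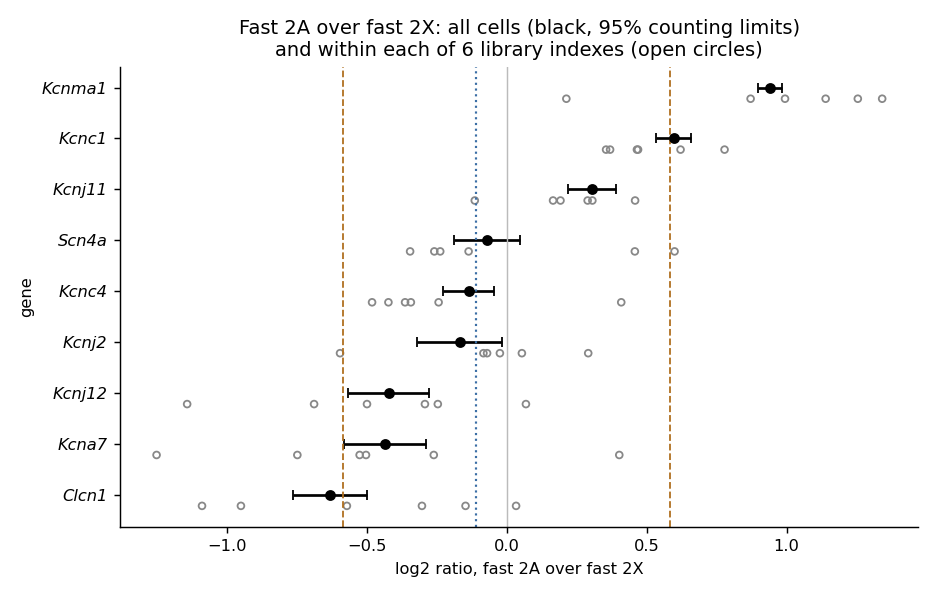
Log2 ratio of fast 2A over fast 2X cells for each channel gene (horizontal axis; black points with 95% counting limits) and within each of 6 library indexes (open circles). Dashed lines mark 1.5-fold and the dotted line the median of all 12625 genes (-0.11); all 6 circles lie above 0 for Kcnma1 and Kcnc1 only.

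Clcn1 (chromosome 6, 42286685 to 42315756, plus strand) was lower in fast 2A cells. It ran from 0.00 CPM through a median of 55.0 to 207 in fast 2X cells and from 0.00 through 43.0 to 149.6 in fast 2A cells, and 16 of 51 fast 2A cells lay above the fast 2X median. The sums were 47.5 CPM (limits 43.7 to 51.6) in fast 2A and 73.6 (71.0 to 76.4) in fast 2X cells (log2 ratio -0.63, limits -0.76 to -0.50; 1.55-fold lower), with limits across the 1.5-fold line. The ratio was -0.49 in lane 1 and -0.75 in lane 2, and it was below 0 in 5 of 6 indexes, from -1.09 on index 709 to 0.03 on index 705. Clcn1 also followed the depth of a cell in the fast 2X class. Over the 117 fast 2X cells its Spearman rho with total counts was 0.48, the highest of the 9, against 0.16 over the fast 2A cells, where Kcnj2 was higher (0.28). These are descriptions with no test. Of the fast 2X cells, the 39 shallowest cells gave 37.7 CPM, the 39 in the middle 63.7 and the 39 deepest 81.1. Among the 28 fast 2A and 56 fast 2X cells with totals between the quartiles of the kept cells, its ratio was -0.34, and as a mean over cells, which gives each cell equal weight, -0.35. Both are inside 1.5-fold. The part of depth in the class difference was not tested. The gene's last 445 bases overlap Fam131b on the other strand, which had 501 counts against 3463 for Clcn1. The use of strand in counting is not given in the sources used here, so counts from the overlap could belong to either gene, and how many lie there was not counted.

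Scn4a (chromosome 11, 106318592 to 106353288, minus strand) hardly differed between the classes. It ran from 0.00 through 61.2 to 194 CPM in fast 2X cells and from 0.00 through 58.5 to 201 in fast 2A cells, and was at 0 in 5 of 171 cells. Its sums of 67.6 and 64.4 CPM gave a log2 ratio of -0.07 with limits of -0.19 to 0.05, so a class difference was not detectable in the sums at this depth. The sign differed between the lanes, with 0.11 in lane 1 and -0.24 in lane 2, and across the 6 indexes, from -0.35 on index 708 to 0.60 (limits 0.20 to 0.99) on index 707.

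Of the inward rectifiers, Kcnj12 leaned to fast 2X cells in the sums and Kcnj2 lay close to the median of all genes. Kcnj2 (chromosome 11, 111066164 to 111076821, plus strand) ran from 0.00 through 37.8 to 159 CPM in fast 2X and from 0.00 through 30.1 to 142 in fast 2A cells, and the sums of 42.6 and 37.96 CPM set its log2 ratio at -0.17 (limits -0.32 to -0.02). It was -0.10 in lane 1 and -0.18 in lane 2, with limits that included 0 in both. Kcnj12 (chromosome 11, 61022564 to 61071131, plus strand) ran from 0.00 through 44.7 to 755 CPM in fast 2X and from 0.00 through 33.0 to 185 in fast 2A cells. The highest value was a shallow fast 2X cell on index 707 with 23 Kcnj12 counts of 30473, more than 3 times the next cell at 199.6 CPM. The sums of Kcnj12 were 53.9 and 40.2 CPM (log2 ratio -0.42, limits -0.57 to -0.28). The difference was larger in lane 1, where the ratio was -0.70 (-0.91 to -0.50), against -0.13 (-0.33 to 0.08) in lane 2. Without the highest fast 2X cell by counts the ratio was -0.37.

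Kcnj11 (chromosome 7, 46093953 to 46100764, minus strand), whose channel opens when ATP runs low, leaned to fast 2A cells. Its levels ran from 0.00 through 93.1 to 237 CPM in fast 2X and from 18.5 through 120.4 to 376 in fast 2A cells, and 37 of 51 fast 2A cells lay above the fast 2X median. The sums of 102 and 126 CPM gave a log2 ratio of 0.30 (limits 0.22 to 0.39), inside 1.5-fold. It was above 0 in 5 of 6 indexes, the exception being -0.11 on index 705. Over the kept cells its level was 107 CPM. Of the sulfonylurea receptors that complete its channel, Abcc9 stood at 159.5 CPM, or 19.1 per kb, and Abcc8 at 15.4 CPM.

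The 2 lanes hold different cells of the same mouse, and of the 9 members only Kcnj12 had lane levels whose limits overlapped. Over kept cells, lane 1 and lane 2 gave Scn4a at 62.1 and 70.0 CPM, Clcn1 at 60.8 and 72.2, Kcnj11 at 96.9 and 116, and Kcna7 at 42.2 and 56.5. Kcnc1 was 199 and 184 CPM, Kcnc4 102 and 121, Kcnj2 37.2 and 45.1, Kcnj12 51.4 and 49.2, and Kcnma1 395 and 351. Lane 2 was thus higher for 6 members and lane 1 for Kcnc1, Kcnj12 and Kcnma1. The limits leave out the spread between cells, and 1 fast 2A cell gave 971 of the 9891 Kcnma1 counts in lane 1.

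Many fibres held both Myh1 and Myh2, so the members were also followed over the Myh2 share of Myh1 and Myh2 together, in steps of 10 percentage points. The bins hold all 171 kept cells, so the fast 2B cell lies at 30 to 40% and both slow cells at 40 to 50%. Kcnma1 was at 288 CPM in the 47 cells with 10 to 20% Myh2 and 293 in the 32 cells at 20 to 30%. It was then 386, 423 and 377 CPM at 30 to 40%, 40 to 50% and 50 to 60%, or 352, 327 and 377 with fast 2A and fast 2X cells only. It was 426 CPM at 60 to 70%, 469 in the 21 cells at 70 to 80% and 710 in the 14 cells at 80 to 90%, where the median cell was at 526. The rise thus lay mostly in the upper bins and was not even. Kcnc1 went from 155 CPM at 10 to 20% to 279 at 80 to 90%. Clcn1 moved the other way within the lower shares, from 84.8 CPM at 10 to 20% to 62.5 at 20 to 30% and 54.9 at 30 to 40%, and then lay between 42.3 and 51.7 up to 90% (54.8 at 40 to 50% without the slow cells). Median totals fell over those first steps too, from 335628 through 248370 to 118886 counts, and their part in the Clcn1 values was not tested. Scn4a stayed between 54.1 and 73.7 CPM in all of these bins. Kcna7 was 56.5 CPM at 10 to 20% and 26.0 at 80 to 90%. The end bins hold 1 cell (0 to 10%) and 2 cells (90 to 100%). In the latter, Kcna7 was at 12.3 CPM, and 1 cell at 1679 CPM gave 971 of the 1016 Kcnma1 counts, the other being at 602 CPM.

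**Figure D4:**
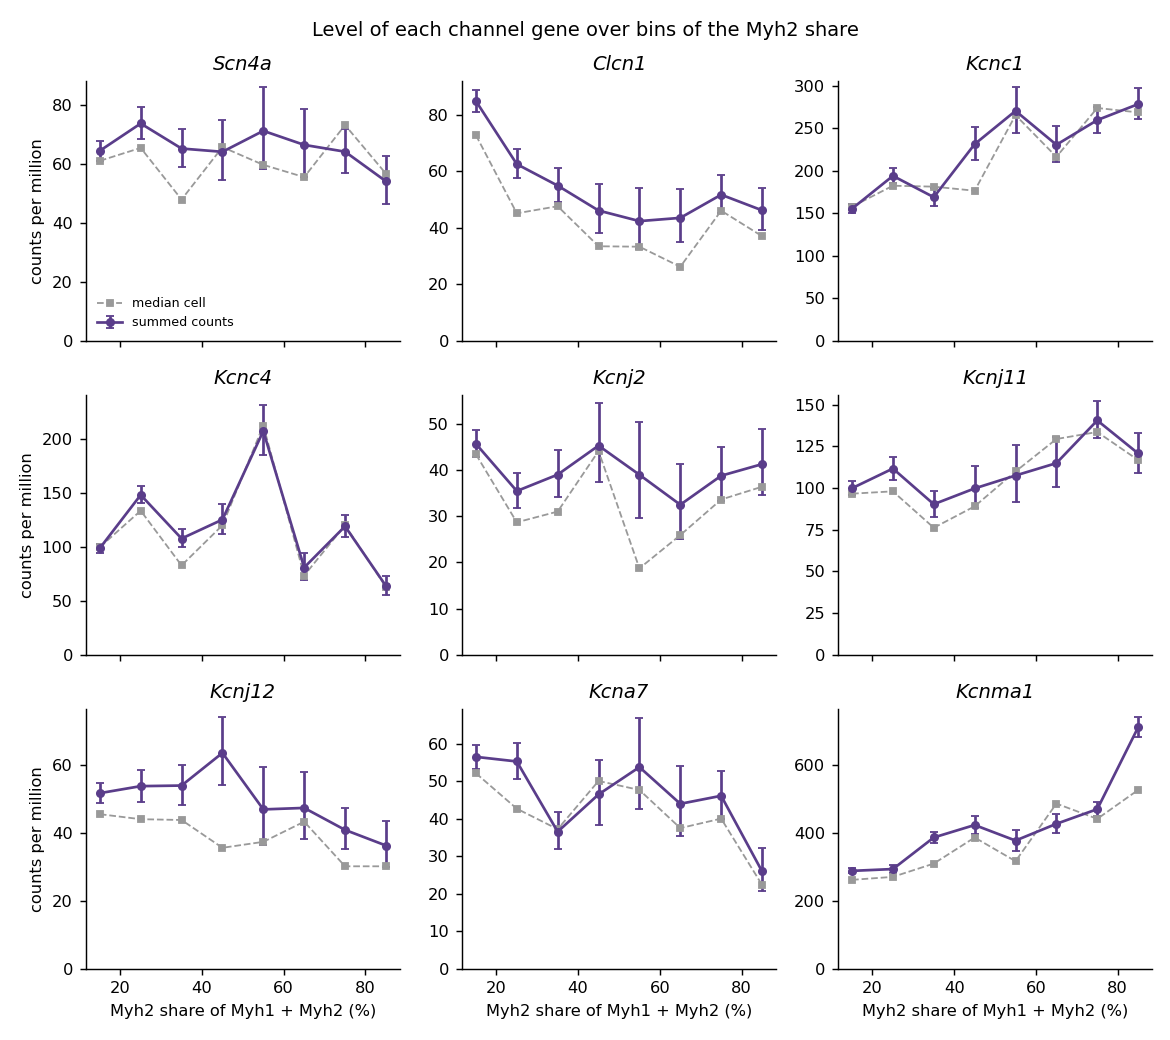
Level of each channel gene in CPM against the Myh2 share of Myh1 plus Myh2 in percent, for bins with at least 5 of the 171 kept cells, slow and fast 2B cells included; purple points are summed counts with 95% counting limits and grey squares the median cell. Kcnma1 and Kcnc1 are higher at 80 to 90% (710 and 279 CPM) than at 10 to 20% (288 and 155), and Clcn1 is lower (46.1 against 84.8).

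Inside the fast 2X class, 69 cells with at least 20% Myh2 were set against 48 cells below it. In the sums none of the 9 members was 1.5-fold apart, where 7.59% of 11549 genes were. Kcnc4 came nearest on the higher side, at 136 against 98.9 CPM (log2 ratio 0.46, limits 0.37 to 0.54), although as a mean over cells it was 0.17. Clcn1 came nearest on the lower side, at 59.8 against 84.6 CPM (log2 ratio -0.50, limits -0.61 to -0.39), and passed 1.5-fold as a mean over cells (-0.65). Kcnc1 was at 0.30 and Kcnma1 at 0.14, the same sign as between fast 2A and fast 2X cells. The bins, this comparison and the class contrast share their cells, so none supports another.

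The slow and 2B fibres are too few for a level of their own. The slow cells had 367 Kcnma1 counts of 478806 (766 CPM, limits 690 to 849) and 62 of 100629 (616 CPM, limits 472 to 790), above the fast 2A median of 471. The fast 2B cell had 300 of 257020 (1167 CPM, limits 1039 to 1307), above all but 1 of the fast 2X cells. Clcn1 was at 16.7 CPM (limits 7.2 to 32.9) and 19.9 (2.4 to 71.8) in the slow cells and 7.8 (0.94 to 28.1) in the fast 2B cell, from 8, 2 and 2 counts, and the limits of the second slow cell reach past the fast 2X median of 55.0. The fast 2B cell also had 2 Scn4a counts (7.8 CPM) and no Kcnj2 count, which allows up to 14.4 CPM, while Kcnc1 in the slow cells was 267 and 89.4 CPM.

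Among the 592 cells that failed the filters, all 9 members were at least 1.5-fold lower than in kept cells, as were 57.4% of 13948 genes. The members' median log2 ratio was -1.34 and that of all genes -0.78. Mitochondrial counts took a median of 48.0% of the total in these cells, and with mt- genes left out of the totals 2 of 9 members were 1.5-fold lower, against 12% of genes. They were Kcnj2, at 25.2 against 43.9 CPM (log2 ratio -0.80, limits -1.02 to -0.58), and Clcn1, at 42.7 against 70.9 (-0.73, limits -0.90 to -0.57). All 9 members were still below 0 (median -0.36) where the median gene was at 0.20. Excluded cells held 236 gene counts per spike-in count against 1202 in kept cells, and the smooth muscle and pericyte markers summed to 194 CPM against 51.9.

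Across the 171 kept cells the members did not move as a block. Of their pairs, Kcnc4 and Kcna7 had the highest Spearman rho at 0.30, followed by Kcnc1 with Kcnj11 and Kcnc1 with Kcnma1 at 0.23, and Kcna7 with Kcnma1 had the lowest at -0.17. These are descriptions over cells of 1 mouse that differ in depth and in fibre class. The genes most like each member, among 3422 with at least 2000 counts, differed by member. Kcnma1 was most like Esrrg, a nuclear receptor of oxidative metabolism (0.55), Ablim1 (0.55) and Prkg1, the cGMP-dependent kinase (0.55). Kcnc1 was most like Actn2, the Z-disc alpha-actinin (0.54), Myoz2, the calcineurin-binding myozenin of slow and oxidative fibres (0.52), and Hspb7 (0.51). Kcnj12 was most like Myoz1 (0.35) and the glycolytic genes Tpi1 (0.33) and Eno3 (0.33). These genes differed between the classes themselves. Their log2 ratios of fast 2A over fast 2X ran from 0.64 to 1.95 for those named with Kcnma1. They ran from 0.74 to 1.51 for those with Kcnc1 and from -0.78 to -0.19 for those with Kcnj12. The part of the class difference in these rhos was not tested. Clcn1 was most like Pde4d (0.50), Rbfox1 (0.50) and Msi2 (0.48), and Scn4a like Hoxc10 (0.32) and Vdac2 (0.30). Kcnj11 was closest to Nfix (0.48), Zfp251 (0.45) and Aes (0.44), Kcna7 to Oaz1 (0.46), Fth1 (0.46) and Tmod4 (0.44), Kcnj2 to Ctsc (0.37), Agbl1 (0.36) and Acyp2 (0.35), and Kcnc4 to the predicted genes Gm3534 (0.47), Gm9034 (0.46) and Gm7745 (0.45).

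The partners of these channels were taken from 3 further lists. Of 15 auxiliary subunits described here, 8 had enough counts, 1 was 1.5-fold lower in fast 2A cells and none was higher, with a median log2 ratio of -0.27. Over all genes tested 10.9% were lower and 3.21% higher, so 1 of 8 is near the background, and the same shares apply to the lists that follow. The lower one was Kcnab1, a beta subunit of Shaker-type channels, at 12.9 against 30.5 CPM (log2 ratio -1.24, limits -1.49 to -0.99). The sodium channel subunit Scn4b stood at 336 CPM, or 67.4 per kb, against 9.40 per kb for Scn4a. The beta subunits of the Kcnma1 channel were lower per kb than Kcnma1 itself (21.9), the highest being Kcnmb2 at 3.02 CPM per kb.

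Of 27 other channels of muscle membranes described here, 14 had enough counts, with a median log2 ratio of -0.12, and none was 1.5-fold higher or lower in fast 2A cells. Kcnq5, a voltage-gated potassium channel, was the highest of them at 350.3 CPM or 45.6 per kb. It stood above all 9 members per kb but below Kcnma1 in CPM, and its log2 ratio was -0.57. Ano5 stood at 124 CPM, or 15.9 per kb. Of 11 anchors and regulators, all with enough counts (median log2 ratio -0.20), 1 was higher and none lower. It was Ank2, an ankyrin, at 409 against 172 CPM or 2.38-fold. Fgf13, which binds sodium channels, stood at 142 CPM per kb and the ubiquitin ligase Nedd4 at 48.8. Of the 20 neuron and kidney channels, 12 had enough counts (median log2 ratio -0.17) and 3 were lower: Kcnh7 at 16.9 against 69.6 CPM (log2 ratio -2.04, limits -2.26 to -1.84), Kcnj3 at 3.53 against 7.58 (-1.10, limits -1.61 to -0.63) and Scn3a at 13.3 against 19.98 (-0.59, limits -0.85 to -0.34). Kcnj6 stood at 23.1 CPM, or 3.03 per kb.

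Markers of other cells that could ride along with a fibre were low beside the myofiber markers, but not beside the 9 members. Over the kept cells the members stood between 41.3 and 372 CPM. Endothelial markers summed to 156 CPM, of which Tek gave 91.0, and the other lists to between 18.7 and 56.4. Some lists differed between the classes in the sums. Schwann cell markers (5 genes) summed to 14.6 CPM in fast 2A and 24.9 in fast 2X cells, and blood markers (5 genes) to 17.2 and 29.5. Medians per cell were nearer, at 8.74 and 11.4 CPM for Schwann cell and 10.9 and 14.6 for blood markers. The highest fast 2X cell held 3082 CPM of Schwann cell markers. Endothelial (145 and 158 CPM), neuron (3 genes, 34.0 and 35.0), fibroblast (46.6 and 46.1) and satellite cell markers (18.9 and 17.6) were close. Over all kept cells fibroblast markers stood at 56.4 CPM and Schwann cell markers at 25.7, above both classes. The slow and fast 2B cells together thus held more of both. No gene of any list was at 0 over the kept cells, and their part in the values of the channel genes was not tested.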

How the data were processed

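Single FDB myofibers of 1 mouse were measured by mcSCRB-seq. The authors mapped reads to mm10 (GRCm38) with zUMIs, which uses STAR 2.5.4b and featureCounts, and deposited 1 table of raw UMI counts per gene and cell, not normalized, with 10 descriptive rows above the genes. The submitters' processing notes also list Cell Ranger 3.1.0. Whether intron reads were counted, and strand, are not given in the sources used here. The unit was recorded as other, since the columns also hold percentages.

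The study's cell filters were applied (more than 5000 genes, less than 20% of counts from 27 mt- genes), and fibre class was the largest of 5 Myh genes. Counts were summed over cells and divided by their totals (CPM), with exact Poisson limits. Ratios had exact conditional binomial limits, and genes with under 200 counts over both classes, or the Myh genes, were not counted as tested. At least 1.5-fold replaced a test. Depth limits single cells: in a cell of 28827 counts, 1 count is 34.7 CPM. The scripts were tested on simulated data. Doublets were not called, since cells were sorted 1 to a well. The replicates are 2 sequencing lanes of 1 mouse.

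The members and lists were chosen with earlier results of these data known. Of the lists as first fixed, 3 genes are not reported here and were left out of their lists' counts and medians. All 9 members, list genes past 1.5-fold, the 2 highest of each list and the 3 genes most like each member were named, and Abcc8, Abcc9, Kcnmb2 and Scn10a were added after their values were seen. Lrrc26, Kcna3, Tubb3 and Nefl were not analysed here. Python 3.11.15, numpy 2.4.6, pandas 2.3.3, SciPy 1.17.1 and matplotlib 3.10.9 were used, with GENCODE vM21 and RefSeq promoter windows.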

Additional observations from a re-analysis of the deposited data

How the results depend on the processing

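The count of 3 members at least 1.5-fold apart between fast 2A and fast 2X cells was 1 (Kcnma1) with each cell thinned to the lowest total and 1 (Kcnma1) with totals between the quartiles, 0 at 2-fold and 5 at a fold midway between 1 and 1.5. It was 3 without lane 1 and 2 without lane 2, where Kcnj12 (-0.70) passed and Clcn1 (-0.49) and Kcnc1 (0.53) did not. Per spike-in count it was 4, with Clcn1, Kcnj12, Kcna7 and Kcnma1. Kcnma1 was 1.5-fold higher in 24 of 24 alternatives (0.60 to 1.22), Kcnc1 in 17 of 24 (0.43 to 0.71) and Clcn1 lower in 15 of 24 (-0.80 to -0.34). The alternatives share their cells and are not independent checks. One of them, the class without Myh8, held the same 51 fast 2A and 117 fast 2X cells, so its ratios could not differ. Without index 705, 709 or 710 Clcn1 was -0.58, -0.57 and -0.58, just inside 1.5-fold. Scn4a changed sign in 3 alternatives and Kcnj2 in 1 (0.23 with totals between the quartiles). Against kept cells, the 107 cells excluded by gene number alone had Kcnj12 at 0.21 on the log2 scale, the reverse of -1.28 over all excluded cells. The cause was not tested. The spike-in, quartile, library index and whole-fibre alternatives, and the Myh2 bins without slow and fast 2B cells, were chosen after seeing the data. No paired analysis was possible because the samples are 1 group. Counting limits leave out the spread between animals, which 1 mouse cannot show.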
